A study of Homo sapiens with 16 samples.

Results

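The 10 genes described here, ORC1, ORC6, CDC6, CDT1, GMNN, CDC45, GINS1, GINS2, GINS3 and GINS4, act at the start of DNA replication. They were taken by name as genes of origin recognition, licensing, CDC45 and GINS, and all 10 were on the array, out of 19775 genes with a probe set of their own. They had 18 probe sets with a single gene symbol in the platform annotation: 4 for GINS4, 3 for GINS2, 2 each for CDC6, CDT1 and GINS3, and 1 each for the other 5 genes. The brightest probe set of a gene, by its mean over the arrays, stands for that gene, and a result from another probe set is named as such.

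The study measured transcripts in SAOS, a human osteosarcoma cell line without working RB (the retinoblastoma protein), and asked what the lysine methyltransferase SMYD2 does to RB put back into these cells. There were 4 groups of 4 arrays: control cells that were not transfected, cells transiently transfected with human RB1, cells transfected with mouse SMYD2, and cells transfected with both. All 16 arrays came from the same line without any other treatment named. The control is not a mock transfection, so each difference from it includes transfection itself, and the time of harvest, the promoters of the constructs and the share of cells that took them up are not stated in the labels. Each group has arrays numbered 1, 3, 4 and 5, with no label that calls them separate cultures; the p-values therefore measure the spread between these samples alone, and it may be technical.

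Replication origins are first bound by the origin recognition complex, of which ORC1 and ORC6 are subunits. CDC6 and CDT1 then load the MCM helicase onto the origin in G1, which is called licensing, and geminin, the product of GMNN, binds CDT1 and blocks further loading once S phase has begun. At the start of S phase CDC45 and the GINS tetramer, made of the products of GINS1, GINS2, GINS3 and GINS4, join MCM and turn it into the active helicase. Many of these genes are textbook targets of the E2F factors, which RB represses.

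Since the members are known for E2F control, their promoters were read from the RefSeq windows of build GRCh38.p14, which span 250 bases before and 50 bases after an annotated start. Of the 10 genes, 9 had a window and these had 12 windows in all, 2 for GMNN and 3 for CDC45. The words TTTGGCGC, TTTCCCGC, TTTGCCGC and TTTCGCGC, which are forms of the E2F site, were searched on both strands. The other motifs searched were CCAAT, the CCAAT box, and TTTGAA and TTCGAA, words of the mitotic CHR element, and no matches of different motifs overlapped in the members' windows. At least 1 E2F word was found for 6 of the 9 genes (CDC6, CDT1, GMNN, GINS1, GINS2 and GINS3), while 3.99% of all 27305 genes with windows had one. A CCAAT box was found for 7 of the 9 genes, against 39.7% of all genes, and a CHR word for 0 of the 9, against 19.5%. A match is a description of these letters, not a site in use. The 4 sequences below, 250 bases upstream of the start each, are examples. In 3 of them the E2F word (in capitals) lies in a gene that fell with RB, while ORC1 also fell and its window holds none of the E2F words. ORC6 and CDC45 fell without such a word too. CDC6, GINS1 and GINS3 have one and had negative differences with RB, but did not pass in the fit used for the calls. With array weights they passed (limma adjusted p = 0.00327, 0.00532 and 0.0103). A link between word and fall was not tested.

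CDT1, chr16:88803539-88803788, plus strand: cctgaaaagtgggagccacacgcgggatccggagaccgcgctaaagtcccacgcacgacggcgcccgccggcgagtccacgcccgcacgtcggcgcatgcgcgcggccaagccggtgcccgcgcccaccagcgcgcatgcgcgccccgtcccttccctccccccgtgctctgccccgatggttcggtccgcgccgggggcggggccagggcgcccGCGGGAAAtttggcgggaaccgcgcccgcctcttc

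GMNN, second window, chr6:24775163-24775412, plus strand: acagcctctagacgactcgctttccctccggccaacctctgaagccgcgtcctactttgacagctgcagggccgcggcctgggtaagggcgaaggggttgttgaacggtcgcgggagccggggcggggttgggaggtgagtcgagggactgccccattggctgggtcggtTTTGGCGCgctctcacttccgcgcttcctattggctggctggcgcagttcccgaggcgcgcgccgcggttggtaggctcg

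GINS2, chr16:85688955-85689204, minus strand: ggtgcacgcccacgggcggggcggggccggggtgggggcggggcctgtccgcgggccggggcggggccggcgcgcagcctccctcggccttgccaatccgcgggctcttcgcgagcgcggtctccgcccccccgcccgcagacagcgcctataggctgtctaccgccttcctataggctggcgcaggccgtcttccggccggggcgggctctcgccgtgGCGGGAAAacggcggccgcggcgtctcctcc

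ORC1, chr1:52404424-52404673, minus strand: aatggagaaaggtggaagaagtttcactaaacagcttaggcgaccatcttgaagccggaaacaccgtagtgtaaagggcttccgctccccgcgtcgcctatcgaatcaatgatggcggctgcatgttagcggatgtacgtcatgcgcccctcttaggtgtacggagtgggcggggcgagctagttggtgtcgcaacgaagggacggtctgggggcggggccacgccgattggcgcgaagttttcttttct

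The E2F word lay at -35 to -28 in CDT1, -80 to -73 in GMNN and -31 to -24 in GINS2, counted from the annotated start. In CDC6 and GINS1 it lay just after the start, at 8 to 15 and 6 to 13, and in GINS3 it spanned the start. ORC1, ORC6 and CDC45 had CCAAT boxes and none of the E2F words searched. The close word TTTGGCGG was not searched, and it occurs in the third CDC45 window and before the start in CDC6 and CDT1. A window without a match is therefore not shown to lack an E2F site.

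**Figure D1:**
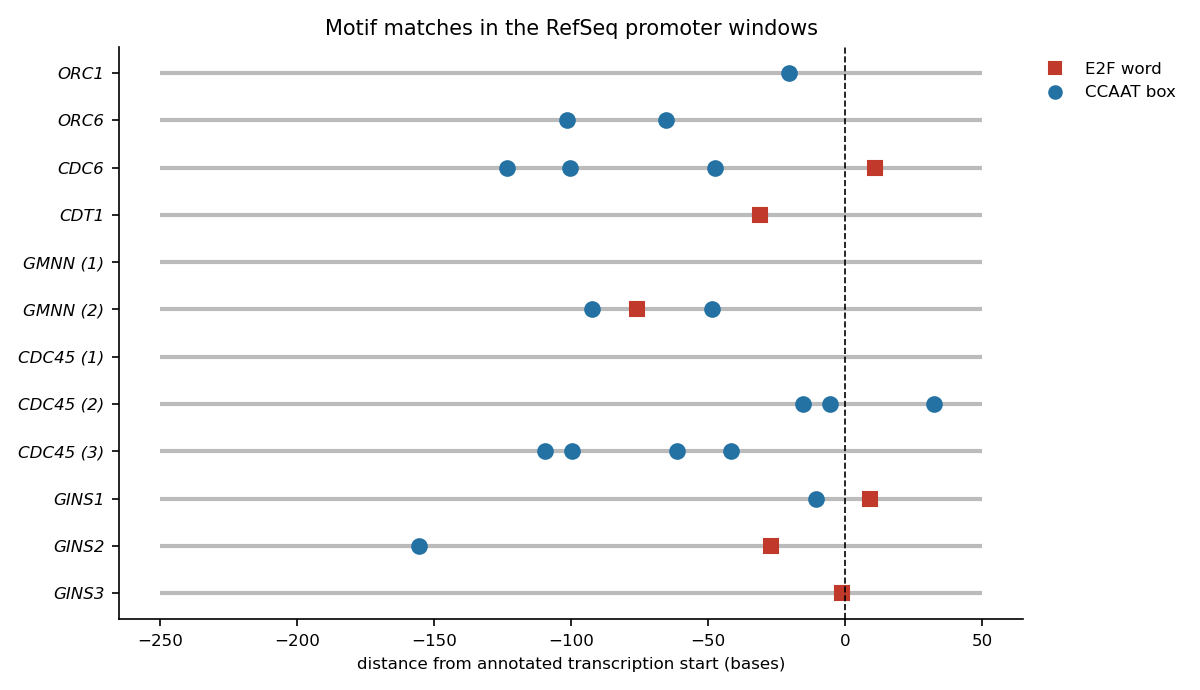
Matches of the E2F words (squares) and the CCAAT box (circles) along the 12 RefSeq promoter windows of 9 genes, with the distance from the annotated transcription start in bases on the x axis. The E2F words of 6 genes lie within 80 bases of the start, and no CHR word was found.

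The arrays were of similar scale, with medians of 5.59 to 5.64 on the log2 scale, and correlations within a group were 0.981 to 0.998. Of the 8 osteoblast lineage markers measured, 7 lay above the median gene, with RUNX2, COL1A1, ALPL and IBSP among the brightest, while the blood, liver and endothelial markers (9 genes) all lay below it. EPCAM was the only one of 4 epithelial markers above it. The transfected RB1 was seen in 1 of 2 RB1 probe sets, which read 6.24 to 6.93 in control, 6.59 to 6.98 with SMYD2, 7.40 to 8.10 with RB and 7.90 to 9.62 with both. RB exceeded control by 1.22 and RB plus SMYD2 exceeded SMYD2 by 1.82, each without overlap (p = 0.0286 in an exact permutation test, two-sided, the lowest possible with 4 arrays a group). The SMYD2 construct is of mouse sequence and was not checked on these human probes. The difference of signal between the 3′ and 5′ ends of ACTB, a measure of RNA integrity, was 3.53 on SMYD2 array 1 and 2.46 on control array 1, against 0.54 to 1.63 on the other 14 arrays. The same difference for GAPDH was small on every array, from -0.006 to 0.161. It was highest on SMYD2 array 1, at 0.161, while control array 1, at 0.055, was the lowest of the control arrays.

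Putting RB back was measured as RB against control. The licensing and GINS genes were lower with RB. Among the 10 genes, 6 fell, ORC1, ORC6, CDT1, GMNN, CDC45 and GINS2, by 0.51 to 0.67 on the log2 scale, and 4 did not pass, CDC6, GINS1, GINS3 and GINS4. No member was higher: all 10 had negative differences, from -0.67 to -0.38 with a median of -0.57, while the median of all genes was 0.01. Over all 19775 genes 1.71% were called lower at an adjusted p under 0.05, and 2.96% in either direction. With the replicate number as a block, 8 members fell, against 3.47% of all genes. All 10 members were lower in 4 of 4 same-numbered pairs of arrays, as 13.2% of all genes were, and the arrays of 8 members did not overlap with control in that direction, as was so for 5.20% of all genes. In these bulk samples, fewer cells in S phase and less of each transcript per cell cannot be told apart. The proliferation markers moved with the members: of MKI67, TOP2A, PCNA, CCNA2, CCNB1 and CDK1, 4 fell and the mean of the 6 was 11.22 to 11.50 in control and 10.71 to 10.76 with RB, and their part in the result was not tested.

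**Figure D2:**
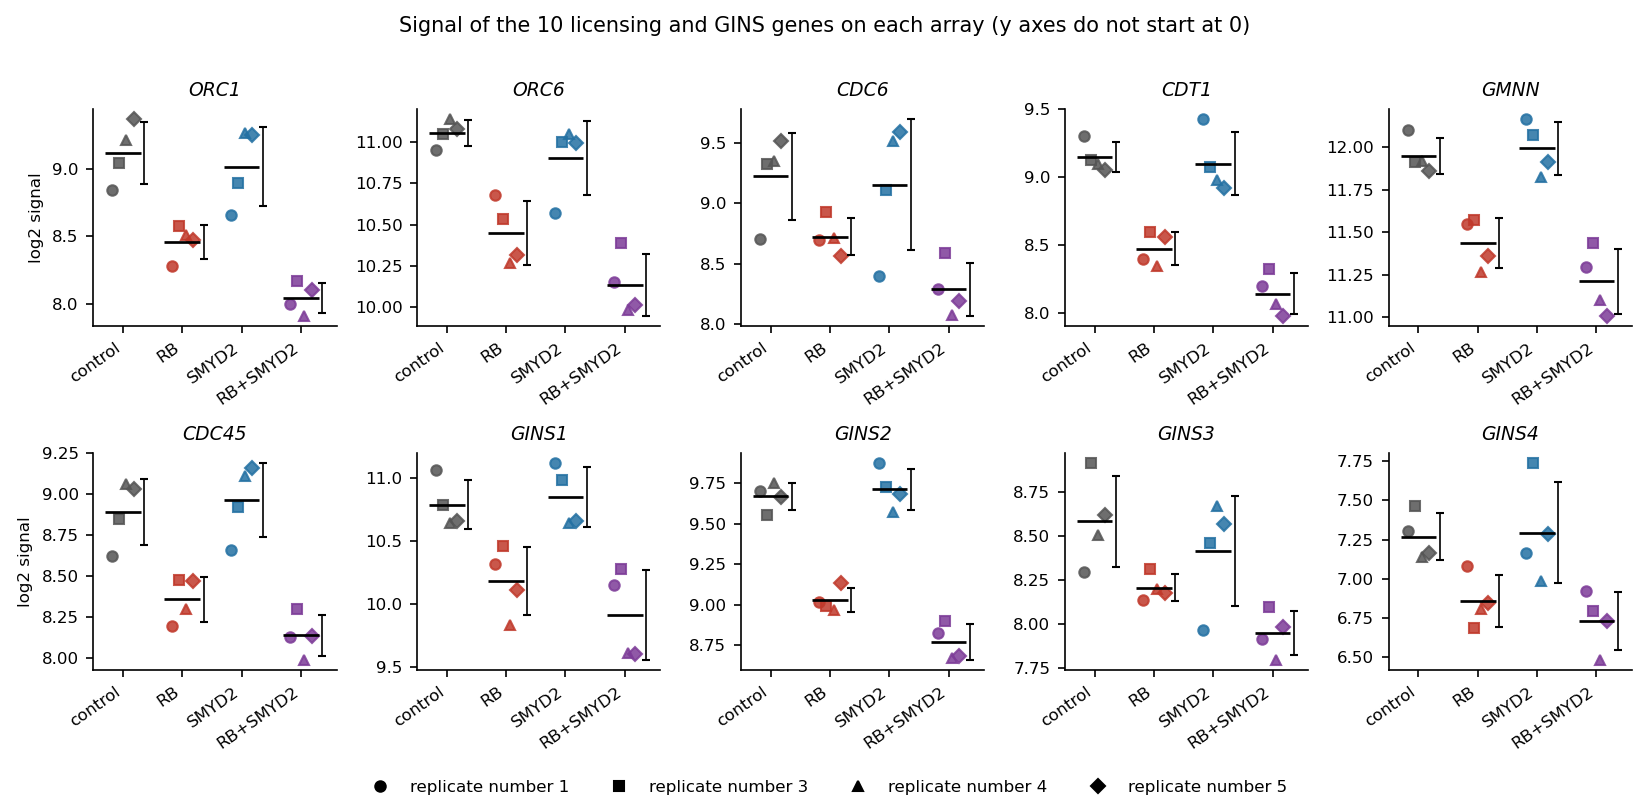
Log2 signal (y axis, not starting at 0) of the 10 genes on each of the 16 arrays, by group; symbols give the replicate number, lines the group mean and bars the SD (n = 4). In 8 of the 10 genes no RB array reaches the lowest control array, and CDC6 and GINS3 overlap.

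Among the origin recognition genes, ORC1, the subunit whose level rises and falls through the cell cycle, read 8.84, 9.04, 9.22 and 9.37 in control (arrays 1, 3, 4 and 5) and 8.28, 8.58, 8.51 and 8.47 with RB. Every RB array was below every control array. ORC1 fell by 0.66 ± 0.14 (SE of the limma fit), 1.58-fold (limma adjusted p = 0.0119). The call was lost without control array 4 or control array 5 (limma adjusted p = 0.0514 and 0.0556). ORC6, the smallest subunit, read 10.95 to 11.14 in control and 10.27 to 10.68 with RB, again apart, and fell by 0.60 ± 0.12 (limma adjusted p = 0.00918). Its only probe set is of the x type, whose probes can match further transcripts.

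None of the remaining subunits of the complex passed with RB. ORC2, ORC3, ORC4 and ORC5, which form the stable core, differed by -0.05 ± 0.22, -0.10 ± 0.13, 0.02 ± 0.13 and 0.08 ± 0.13 with RB (limma adjusted p = 0.964, 0.835, 0.971 and 0.888). With RB plus SMYD2 against SMYD2 they differed by -0.14 ± 0.22, -0.10 ± 0.13, 0.16 ± 0.13 and 0.15 ± 0.13, and none passed. The difference between subunits was not itself tested.

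**Figure D3:**
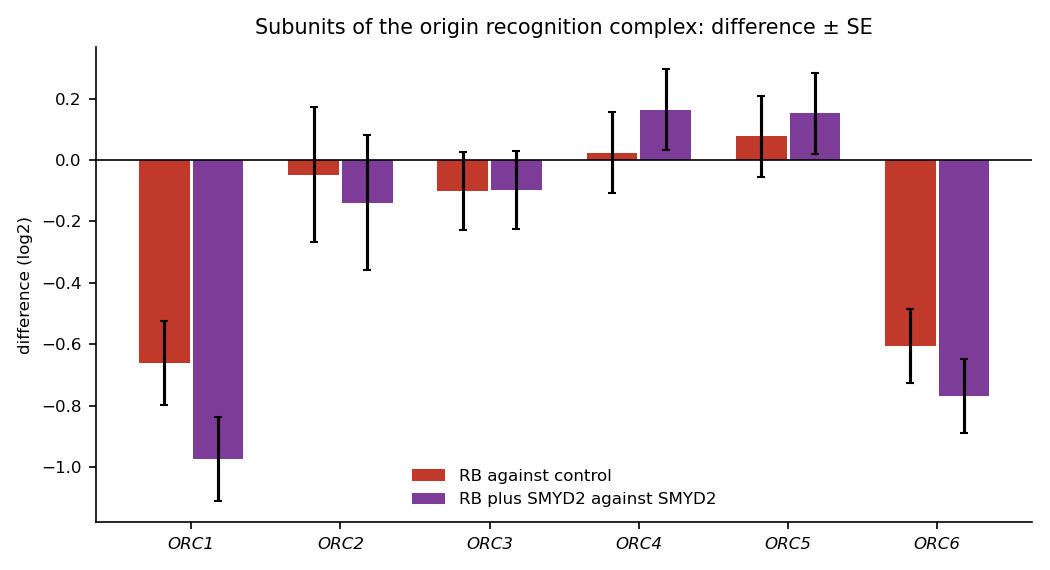
Difference on the log2 scale (y axis) of the 6 subunits of the origin recognition complex in RB against control and in RB plus SMYD2 against SMYD2; bars start at 0 and error bars are SE. ORC1 and ORC6 differ by -0.97 to -0.60, and the other 4 by -0.14 to 0.16.

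Of the loading factors, CDT1 read 9.31, 9.13, 9.10 and 9.05 in control and 8.40, 8.60, 8.35 and 8.56 with RB. The groups lay well apart in this probe set, which like that of ORC6 is of the x type, and CDT1 fell by 0.67 ± 0.11, 1.59-fold (limma adjusted p = 0.00306). Its other probe set fell by 0.52 ± 0.09 in the fit over all 54613 probe sets (limma adjusted p = 0.00971). CDC6, the ATPase that works with CDT1, read 8.70, 9.33, 9.35 and 9.52 in control and 8.69, 8.93, 8.71 and 8.56 with RB. Control array 1 was as low as the RB arrays, while the other 3 control arrays were above all of them. CDC6 differed by -0.50 ± 0.22 and did not pass (limma adjusted p = 0.320, and 0.00327 with array weights), nor did its other probe set, at -0.57 ± 0.21 (limma adjusted p = 0.302). GMNN, the inhibitor of CDT1, read 12.10, 11.91, 11.92 and 11.86 in control and 11.55, 11.57, 11.27 and 11.36 with RB. It fell together with its target, by 0.51 ± 0.10 (limma adjusted p = 0.00990), with no overlap.

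Among the genes of the active helicase, CDC45 read 8.62, 8.85, 9.06 and 9.03 in control and 8.19, 8.47, 8.30 and 8.47 with RB. It fell by 0.53 ± 0.12 (limma adjusted p = 0.0243), a call lost when any of 4 arrays was left out, namely control 4, control 5, RB 1 and RB 4 (limma adjusted p of at least 0.0713 in each case). GINS2 gave the clearest separation of the GINS genes. It read 9.71, 9.55, 9.75 and 9.66 in control and 9.02, 8.99, 8.97 and 9.13 with RB, and fell by 0.64 ± 0.09 (limma adjusted p = 0.000555). GINS1 read 10.64 to 11.06 in control and 9.84 to 10.46 with RB, without overlap, and differed by -0.61 ± 0.17. It did not pass without the replicate number as a block and did with it (limma adjusted p = 0.0697 and 0.000452), and it also passed without SMYD2 array 1 (0.0401). GINS4 differed by -0.41 ± 0.14 and likewise did not pass without the block but did with it (limma adjusted p = 0.160 and 0.0483). GINS3 differed by -0.38 ± 0.14 and passed in neither fit (limma adjusted p = 0.216 and 0.0513). The 4 genes encode a complex with 1 copy of each product, so their differences are given side by side, and no test was made between them.

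The probe sets of 1 gene did not always move alike. In the fit over all probe sets 9 of the 18 were called lower with RB, where 0.665% of all probe sets were. Leaving out control array 4 gave a count of 2, control array 5 gave 4, and RB array 4 or RB array 5 gave 3. The share of all probe sets called in these smaller fits is not given, so the lower counts are not read as particular to the members. The second GINS3 probe set fell by 0.53 ± 0.12 and the second GINS4 probe set by 0.45 ± 0.11 (limma adjusted p = 0.0323 and 0.0468), although the brighter set of each gene did not pass. The 2 dimmer GINS2 probe sets differed by 0.05 ± 0.09 and -0.15 ± 0.15 (limma adjusted p = 0.940 and 0.839). Over the 16 arrays they correlated with the bright GINS2 set at -0.282 and 0.650, while the pairs of CDC6, CDT1 and GINS3 sets correlated at 0.984, 0.890 and 0.906. With the 3 GINS2 sets averaged, GINS2 differed by -0.25 and did not pass (limma adjusted p = 0.168). The 2 dimmest GINS4 sets, at means of 4.96 and 4.23, differed by -0.11 ± 0.10 and -0.23 ± 0.09 (limma adjusted p = 0.796 and 0.316), and a signal that low was not separated from background.

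In cells that carried SMYD2, the addition of RB was measured as RB plus SMYD2 against SMYD2. All members but GINS3 fell, 9 of 10, and 0 rose, where 4.25% of all genes were called lower. With the replicate block all 10 fell, against 7.60% of all genes. In their brightest probe sets 8 members were lower without overlap (6.61% of all genes), and CDC6 and GINS3 overlapped. The median difference was -0.85, against 0.01 for all genes. ORC1 read 8.66, 8.89, 9.27 and 9.25 with SMYD2 and 7.91 to 8.17 with both, a fall of 0.97 ± 0.14 or 1.96-fold (limma adjusted p = 0.000202). Every array of the combined group was below every SMYD2 array. CDT1 read 9.43, 9.08, 8.98 and 8.92 with SMYD2 and 8.20, 8.32, 8.07 and 7.98 with both, and fell by 0.96 ± 0.11 (limma adjusted p = 3.6e-05). GINS2 read 9.88, 9.73, 9.57 and 9.68 against 8.83, 8.90, 8.67 and 8.69, and fell by 0.94 ± 0.09 (limma adjusted p = 3.57e-06). Neither pair of groups overlapped.

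GMNN, the licensing inhibitor, fell by 0.78 ± 0.10, CDC45 by 0.83 ± 0.12, ORC6 by 0.77 ± 0.12 and GINS1 by 0.94 ± 0.17 (limma adjusted p = 0.000101 to 0.00201), each without overlap. CDC6 fell by 0.87 ± 0.22 (limma adjusted p = 0.0209), but SMYD2 array 1 read 8.40 while the other SMYD2 arrays read 9.11 to 9.59, and the combined group read 8.08 to 8.59. The CDC6 call was lost without SMYD2 array 4 or 5 and without RB plus SMYD2 array 4 or 5 (limma adjusted p = 0.0695, 0.0694, 0.0766 and 0.0671). GINS4 fell by 0.56 ± 0.14 (limma adjusted p = 0.0211), a call lost without SMYD2 array 3 and without RB plus SMYD2 array 4 or 5 (0.0586, 0.0882 and 0.0567). GINS3 differed by -0.47 ± 0.14 (limma adjusted p = 0.0572) and passed with the replicate block (0.00891). It passed too without SMYD2 array 1, control array 1 or control array 3 (limma adjusted p = 0.0028, 0.0427 and 0.0399). Without SMYD2 array 1, the array with the highest ACTB value, 10 of 10 members fell. The share of all genes called lower in that fit is not given, so the count is not read as particular to the members.

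In the fit over all probe sets 12 of the 18 member sets fell in this comparison, where 2.13% of all probe sets were called lower. The second GINS3 set read 7.76, 8.08, 8.12 and 8.13 with SMYD2 and 7.06 to 7.47 with both, without overlap, and fell by 0.76 ± 0.12 (limma adjusted p = 0.000755), unlike the brighter set. The second CDC6 set differed by -0.77 ± 0.21. It did not pass without the replicate number as a block but did with it (limma adjusted p = 0.0580 and 0.0119). The second sets of CDT1 and GINS4 fell by 0.90 ± 0.09 and 0.63 ± 0.11 (limma adjusted p = 2.1e-05 and 0.00196), as the brighter ones did. The dim GINS2 sets differed by 0.057 ± 0.09 and -0.31 ± 0.15, and the dim GINS4 sets by -0.16 ± 0.10 and -0.20 ± 0.09, and none of these 4 passed.

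RB plus SMYD2 against control, which sets the doubly transfected cells against untransfected ones, had all 10 members lower with no overlap in any (4.20% of all genes were called lower, and 7.79% lay lower without overlap). The falls ran from 0.54 ± 0.14 for GINS4 (limma adjusted p = 0.0272) to 1.07 ± 0.14 for ORC1 (6.9e-05), and CDT1, the other member beyond 1 unit, fell by 1.00 ± 0.11 (2.2e-05). These were falls of 1.45-fold, 2.11-fold and 2.01-fold. GINS4 lost its call without control array 1 or 3 and without RB plus SMYD2 array 4 or 5 (limma adjusted p = 0.0583, 0.0862, 0.111 and 0.0683), and CDC6 without control array 5 or RB plus SMYD2 array 4 (0.0519 and 0.0517). This comparison shares its control arrays with RB against control and its combined arrays with the comparison against SMYD2.

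SMYD2 against control showed no such shift. Of the 10 members 5 lay lower and 5 higher with SMYD2, from -0.17 ± 0.14 for GINS3 to 0.07 ± 0.12 for CDC45, with a median of -0.01. Limma called 0 of 10, and 0 were at an unadjusted p under 0.05, with or without the replicate block. It called 0.00% of all genes (572 unadjusted). For ORC1 control read 8.84 to 9.37 and SMYD2 8.66 to 9.27, for CDT1 9.05 to 9.31 and 8.92 to 9.43, and for GINS2 9.55 to 9.75 and 9.57 to 9.88. In these brightest sets the groups overlapped. The second CDT1 set read 8.57 to 8.75 in control and 8.79 to 8.84 with SMYD2, higher without overlap, and was the only 1 of the 18 member sets whose groups did not overlap. Its difference of 0.16 ± 0.09 did not pass (limma adjusted p = 0.998).

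What SMYD2 adds to RB, the question named by the series, was measured as RB plus SMYD2 against RB. All 10 members were lower with both constructs than with RB alone, from -0.44 to -0.12 with a median of -0.27, but none passed. Limma called 0 of 10 (5 at an unadjusted p under 0.05), and 0 with the replicate block (9 unadjusted); of all genes it called 0.00%, with 856 of the 19775 at an unadjusted p under 0.05 without the block and 1236 with it. ORC1 read 8.28, 8.58, 8.51 and 8.47 with RB and 7.91 to 8.17 with both, so the groups did not overlap. Its difference was -0.41 ± 0.14 with a 95% interval of -0.70 to -0.13 (limma adjusted p = 0.906). CDT1 differed by -0.33 (95% interval -0.57 to -0.09), GINS2 by -0.26 (-0.44 to -0.08) and GINS3 by -0.26 (-0.56 to 0.04), and these 3 did not overlap either, although the second CDT1 set did (-0.22 ± 0.09). In all, 4 of 10 members lay lower without overlap, as 1.98% of all genes did. The other 6 differed by -0.44 for CDC6, -0.31 for ORC6, -0.27 for GINS1, -0.23 for GMNN, -0.22 for CDC45 and -0.12 for GINS4, with overlapping arrays. A p that misses the threshold does not show that the groups were alike. The mean of the 6 proliferation markers was lower without overlap here too, at 10.71 to 10.76 with RB and 10.33 to 10.66 with both; none of the 6 passed, and their part in the members' difference was not tested.

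Same-numbered pairs gave the same direction: 9 of 10 members were lower with both constructs in 4 of 4 pairs, as 9.54% of all genes were, and GINS4 in 3 of 4. In ORC1 the pair differences were -0.28, -0.41, -0.60 and -0.37 for arrays 1, 3, 4 and 5. Without RB, SMYD2 gave ORC1 pair differences of -0.18, -0.15, 0.05 and -0.12. Whether the difference made by SMYD2 itself depended on RB was tested as the interaction, which was negative for all 10 members with a median of -0.29, and 0 passed. GINS2 was the only one at an unadjusted p under 0.05 (-0.30 ± 0.12, limma adjusted p = 1.0), and 6 were with the replicate block, with 0 called there too (limma adjusted p = 0.993). Of all genes 0.00% were called for the interaction (582 unadjusted, and 786 with the block).

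**Figure D4:**
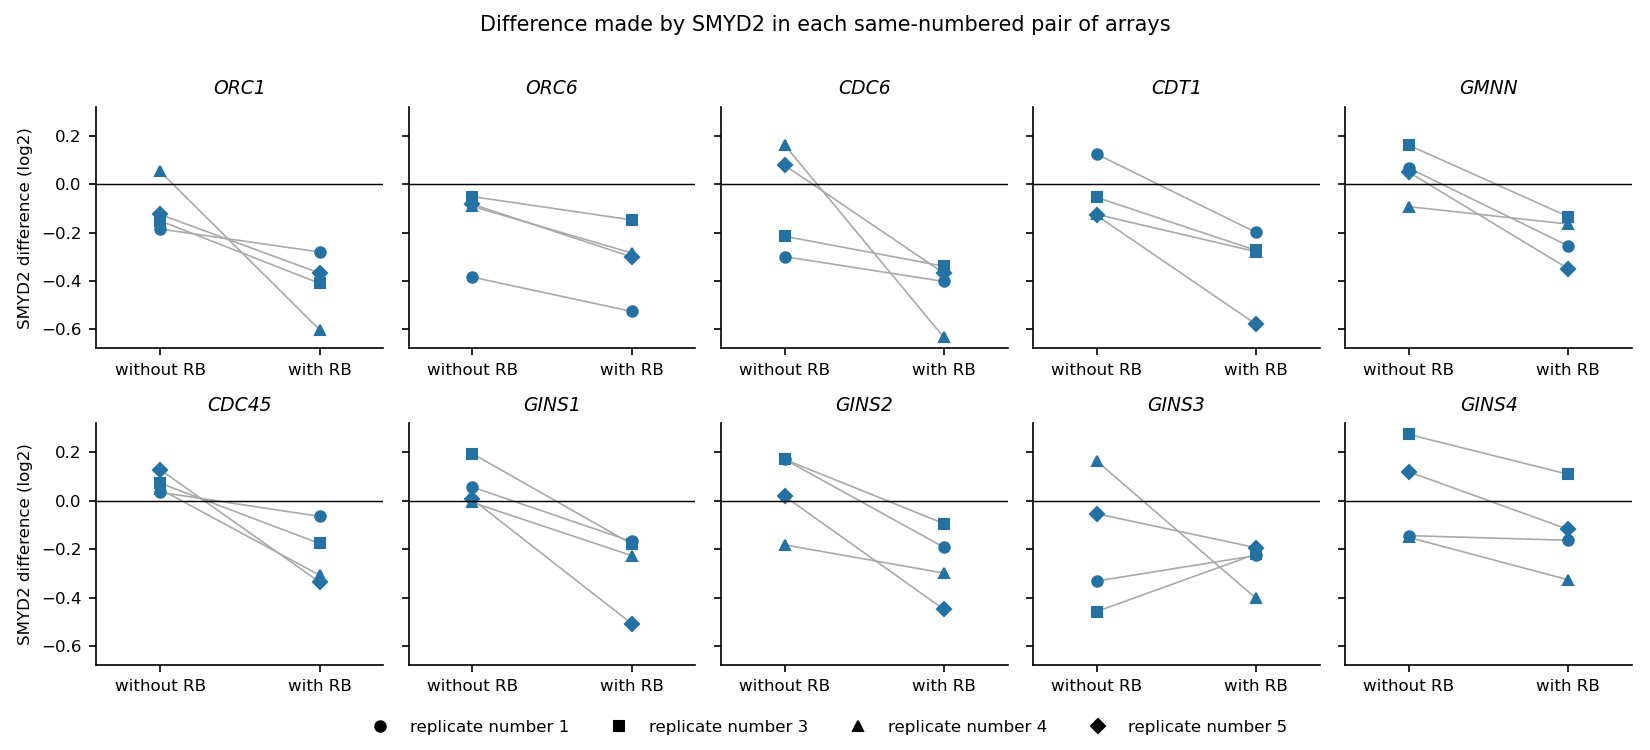
Difference made by SMYD2 on the log2 scale (y axis) in each same-numbered pair of arrays, without RB (SMYD2 minus control) and with RB (RB plus SMYD2 minus RB); lines join the same replicate number. With RB all pairs of 9 genes lie below 0, and 1 pair of GINS4 lies above it.

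The arrays of this comparison also differed in RB1 signal, by an amount that did not pass the test. RB1 read 7.40, 7.43, 8.10 and 7.87 with RB and 7.90, 7.90, 9.25 and 9.62 with both, a difference of 0.97 that overlapped (exact two-sided permutation p = 0.114). The mean signal of the 10 members was 9.035, 9.113, 8.921 and 9.001 on RB arrays 1, 3, 4 and 5. It was 8.788, 8.926, 8.568 and 8.644 on the combined ones. The means of RB arrays 1 and 5 lay close together. In both groups arrays 4 and 5 had more RB1 signal and a lower member mean than arrays 1 and 3. The part of RB1 in the difference between the groups was not tested.

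**Figure D5:**
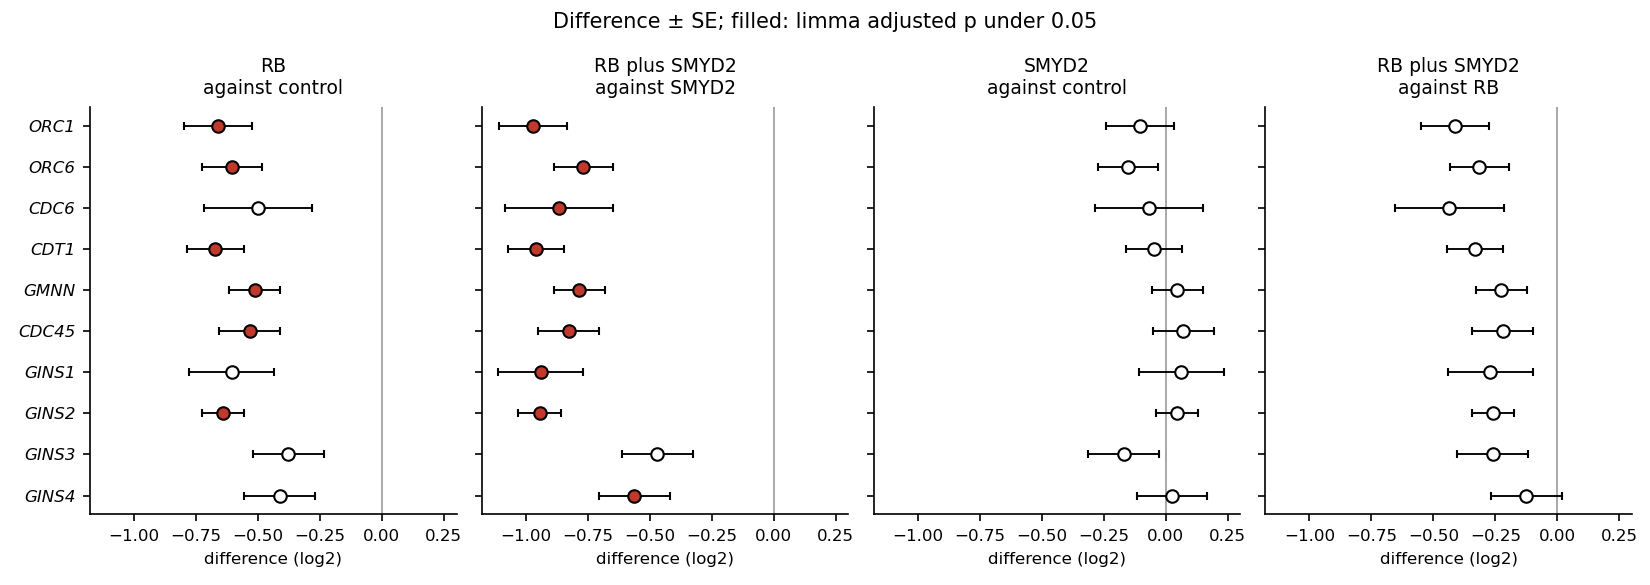
Difference ± SE on the log2 scale (x axis) of the 10 members in 4 comparisons; filled points passed at a limma adjusted p under 0.05. With RB against control 6 points are filled, with RB plus SMYD2 against SMYD2 9, and none in the 2 comparisons that add SMYD2, where all 10 points lie left of 0 only in the presence of RB.

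As a set the members followed each other mainly through the groups, although some pairs also did so within groups. Over the 16 arrays, which share those groups, the 45 pairs of members correlated at 0.561 to 0.981 with a median of 0.821. With group means subtracted the median was 0.121 and the range -0.575 to 0.966. The highest were GMNN with GINS1 at 0.966, ORC1 with CDC45 at 0.927 and ORC1 with CDC6 at 0.895. The lowest was CDC6 with CDT1, followed by GINS2 with GINS3 at -0.560 and ORC1 with CDT1 at -0.554. The values of CDC6 and ORC1 with CDT1 rest on the x type CDT1 set. With the second CDT1 set they were -0.00014 and 0.16. On arrays 1 of control and SMYD2, the x type CDT1 set was highest there in its group (9.31 and 9.43) while the second CDT1 set was lowest (8.57 and 8.79). GMNN (12.10 and 12.17) and GINS1 (11.06 and 11.12) were highest there, and CDC6 (8.70 and 8.40) and ORC1 (8.84 and 8.66) were lowest. These are the 2 arrays with the highest ACTB values, and the part of RNA integrity was not tested.

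Outside the members, the genes whose profile over the 16 arrays was most like the mean of the 10 members were AURKA, MELK, POLE, KIF2C and HMMR, out of 14693 genes with a mean of at least 5. Their Pearson correlations were 0.991, 0.991, 0.986, 0.986 and 0.984. AURKA, MELK, KIF2C and HMMR are known for mitosis and POLE for DNA synthesis. With group means subtracted they were PTTG1, AURKA, TDH-AS1, ERFE and HJURP, at 0.884 to 0.865. Between groups these did not all follow the members. In RB plus SMYD2 against SMYD2, TDH-AS1 was higher by 0.30 ± 0.08 (limma adjusted p = 0.0225). ERFE differed by -0.54 ± 0.26 and did not pass (limma adjusted p = 0.257), while PTTG1, AURKA and HJURP fell.

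The other genes of origin licensing and firing were taken as a list of 39, of which 37 had a probe set. With RB against control 15 of the 37 fell and 0 rose, with a median of -0.44, where 1.71% of all genes were called lower. With the replicate block 22 fell, against 3.47% of all genes, and with array weights 23 fell, against 5.10%. With RB plus SMYD2 against SMYD2 23 fell and 0 rose, with a median of -0.56, and against control 22 fell (4.25% and 4.20% of all genes). WDHD1, which couples the helicase to the polymerase, fell by 0.73 ± 0.09 with RB, DBF4B, an activator of the CDC7 kinase, by 0.67 ± 0.13 and the helicase subunit gene MCM7 by 0.65 ± 0.09 (limma adjusted p = 0.000518, 0.00671 and 0.000555). MCM10, which acts with CDC45, differed by -0.70 ± 0.26 and passed with the block or without SMYD2 array 1 (limma adjusted p = 0.205, 0.0174 and 0.0490). DTL and SKP2, which help to direct CDT1 to degradation, were among those that fell, while their broadly acting partners CUL4A, CUL4B, DDB1, RBX1 and SKP1 lay between -0.14 and 0.05 with RB against control and did not pass there. Limma called 0 of the 37 in SMYD2 against control (0 unadjusted), in RB plus SMYD2 against RB (11 unadjusted) and for the interaction (3 unadjusted), and 0 with the block in each.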

How the data were processed

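RNA of SAOS cells was measured on 16 Affymetrix arrays, in 4 groups of 4. For each array the deposited table gives a log2 signal for 54675 probe sets, made by the authors with RMA (background correction, quantile normalization, probe summary), per the submitters' processing notes; the version, and whether all arrays were processed together, are not given in the sources used here. RMA keeps no detection call. Precision is limited by the number of arrays. No array was a copy of another (at most 0.0750% identical values within a group).

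Of the probe sets 41097 carried 1 gene symbol in the platform annotation, 1801 several and 11777 none; 41043 of the 41097 matched a RefSeq gene, with 0 symbols changed. Genes were tested in R 4.3.3 with limma 3.58.1, as a linear model of 4 group means on all 16 arrays with a trended empirical Bayes variance, two-sided, on the brightest probe set of each of 19775 genes, and again on all 54613 probe sets without the 62 control sets. Benjamini-Hochberg adjustment ran over the whole fit, in each of 6 comparisons (1 an interaction), at a threshold of 0.05. Errors are SE of that fit; SD are over 4 arrays. The fit was tested on simulated data first.

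The members and lists were chosen with earlier results of these data known. By the naming rule the text takes all members, the 4 other pathway genes with the largest difference in RB against control, the 5 most similar profiles, and RB1; further pathway genes were named after their values were seen. Deviations from group means of same-numbered arrays correlated at 0.145 to 0.705 in every pair of groups compared, so the replicate number was taken to pair the arrays and a fit with it as a block is given where it changes a call. Alternatives covered scaling, probe set choice, dim genes, arrays in the fit, trend, array weights, the block, and leaving out 1 array at a time. Plots were made in matplotlib 3.10.9.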

Additional observations from a re-analysis of the deposited data

Results flagged for a closer look

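In groups of 4 arrays, 1 value stood far from the other 3 (by Dixon's test) in 3 of 72 groups of member probe sets, and chance flags about 1 in 20. ORC6 read 10.57 on SMYD2 array 1, against 10.99 to 11.05 on the other SMYD2 arrays. The second GINS3 probe set read 7.76 on SMYD2 array 1, against 8.08 to 8.13, and 8.38 on control array 3, against 8.12 to 8.16 on the other control arrays. SMYD2 array 1 is the array with the ACTB value of 3.53.

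In 2 probe sets the difference made by SMYD2 had one sign in every same-numbered pair without RB and the opposite sign in every pair with RB. The second CDT1 probe set was higher with SMYD2 than control by 0.16 on average and lower with RB plus SMYD2 than with RB by 0.22 (differences of 0.16 and -0.22). CDC45 did the same at 0.071 and -0.22. The opposition of the pairs was not tested in itself. In limma the interaction was called for neither (limma adjusted p = 1.0 for each).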

How the results depend on the processing

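The 6 comparisons gave counts of members, member probe sets and pathway genes called, and these stayed within 1.5 times under every alternative run, with the exceptions given here. With array weights 23 pathway genes were called (5.10% of all genes were called lower) in RB against control, in place of 15. With 1 array left out, the member probe sets called in RB against control ranged from 2 to 9, in place of 9. Members called ranged from 4 to 7 in RB against control, from 7 to 10 in RB plus SMYD2 against SMYD2 and from 8 to 10 in RB plus SMYD2 against control. The shares of all genes and probe sets called with 1 array left out are not given. These ranges are therefore not read as particular to the members. With the replicate block members called were 8, 10 and 10, in place of 6, 9 and 10, and the comparisons that add SMYD2, and the interaction, stayed at 0; apart from GINS1 and GINS4 in RB against control and GINS3 in RB plus SMYD2 against SMYD2, the block changed no member's call. No difference of a member changed sign in the 4 comparisons that involve RB. In a fit of only the groups compared, CDC6 and GINS4 lost their calls in RB plus SMYD2 against SMYD2 (limma adjusted p = 0.0816 and 0.0908) and GINS1 passed in RB against control (0.0360). With array weights CDC6, GINS1 and GINS3 passed there (limma adjusted p = 0.00327, 0.00532 and 0.0103). GINS3 also passed in RB plus SMYD2 against SMYD2 with genes of a mean under 5 or under 6 left out (limma adjusted p = 0.0467 and 0.0403), with array weights (0.000212) and with probe sets averaged (0.00391). GINS4 passed in RB against control with probe sets averaged (limma adjusted p = 0.0314). The RB1 difference between RB and control was 1.09 to 1.37 with 1 array left out, and 0.59 averaged over both RB1 probe sets. The cause of these changes was not tested. These alternatives for RB1 were chosen after seeing the data.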
